A study of Glycine max with 13 samples.

Results

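ARF34 and ARF36 are maize auxin response factors (ARFs) whose binding to soybean DNA gave the longest lists of binding events of clade A and of clade B. The ARF34 list held 35715 events and the ARF36 list 22516, together 58231 of the 177320 events in the lists of 12 ARFs. All events of both lists were taken, so the lists were chosen by their length, which is not a result. An event is the single base at which the authors' caller, GEM per the titles of the deposited lists, placed the binding of the protein. Strength is the value the authors gave each event, and it was ranked only within a list. An event was counted as shared when an event of the other list lay within 100 bp of it, and otherwise as ARF34-only or ARF36-only.

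The events come from DAP-seq, an assay in a test tube: tagged transcription factor is mixed with naked genomic DNA, and the DNA it retains is sequenced. The DNA was from soybean leaf (Glycine max), and each of the 12 maize proteins had 1 library and 1 list. The study also had a control library made with the GST-HALO tag, not analysed here. With 1 library a protein, the comparison of ARF34 with ARF36 has no replicate check and no test, and the ranges after shares are Wilson 95% intervals for counting error.

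ARFs bind auxin response elements built around a TGTC core and, as dimers, can occupy pairs of such elements. Clade A proteins are generally described as activators of transcription when auxin removes their Aux/IAA inhibitors, and clade B proteins as repressors that can compete for the same genes. The clades come from the published phylogeny of the maize family and are not given by the sample labels. Naked DNA carries neither nucleosomes nor partner proteins, so the lists describe what the protein retains and not what it occupies in a cell. No build of the soybean genome is named for the lists, and the sequences under the events were not analysed here.

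Most events of either protein had no event of the other nearby. Of the 35715 ARF34 events, 5433 (15.2%, Wilson 95% interval 14.8% to 15.6%) had an ARF36 event within 100 bp, and 30282 were ARF34-only. Of the 22516 ARF36 events, 5374 (23.9%, 23.3% to 24.4%) had an ARF34 event within 100 bp, and 17142 were ARF36-only. The lists differ 1.59-fold in length, so the 2 shares have different denominators for nearly the same events. The depth of the libraries is unknown, and an event of one list may lie under the threshold of the other.

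Sharing was most frequent in the strongest decile of each list. In the ARF34 list 27.5% of the strongest decile (26.1% to 29.0%) was shared, against 11.5% of the weakest (10.4% to 12.5%), beside 15.2% of all ARF34 events. From the weakest to the eighth decile of ARF34 the share stayed between 11.5% and 14.7%, and it was 18.1% in the ninth. In the ARF36 list 45.2% of the strongest decile (43.1% to 47.2%) was shared, against 15.6% of the weakest (14.1% to 17.1%), beside 23.9% of all ARF36 events. From the second to the eighth decile of ARF36 the share lay between 15.7% and 25.7%, and it was 31.7% in the ninth. The strongest decile began at a strength of 95 for ARF34 and of 88 for ARF36.

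**Figure D1:**
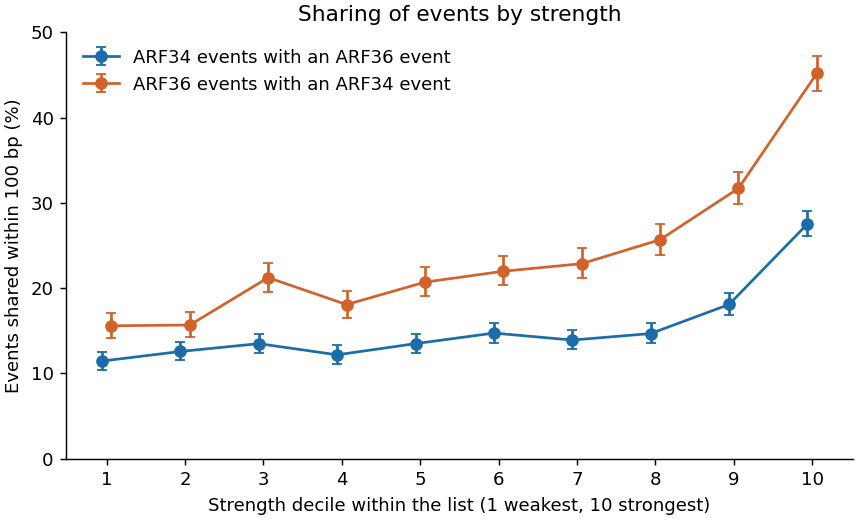
Share of events (%, y axis) with an event of the other list within 100 bp, by strength decile within the list (x axis, 1 weakest to 10 strongest), for ARF34 (blue) and ARF36 (orange). Points are shares of one list and bars are Wilson 95% intervals. Both curves turn upward in the last 2 deciles, to 27.5% for ARF34 and 45.2% for ARF36.

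Even among the very strongest events many belonged to one protein. Of the 10 strongest events, 8 of ARF34 and 6 of ARF36 were shared. Of the 100 strongest, 62 of ARF34 and 66 of ARF36 were shared, and of the 1000 strongest, 392 of ARF34 and 538 of ARF36. The strongest decile thus held 2588 ARF34-only events (72.5% of that decile) and 1234 ARF36-only events (54.8%). The deposited p-values also differed between these classes in the strongest decile. An event's −log10 p was at least 0.95 times the value that its strength gives with no opposing control reads, a reading inferred from the values, for 46.4% of shared and 37.3% of ARF34-only events in the strongest ARF34 decile. In the strongest ARF36 decile these were 46.2% of shared and 35.3% of ARF36-only events. Over all strengths the classes were closer, with 58.4% of shared and 55.3% of ARF34-only events in the ARF34 list, and 58.7% of shared and 58.1% of ARF36-only events in the ARF36 list. Their part in the sharing was not tested.

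Where both proteins had an event, their strengths were ranked only loosely alike. Pairing each ARF34 event with the ARF36 event for which both were each other's nearest gave 5213 pairs. Across these pairs the Spearman rank correlation of the strengths was 0.23. Of the 951 pairs with a strongest-decile ARF34 event, 294 (30.9%) had a strongest-decile ARF36 event and 241 (25.3%) an ARF36 event of the weaker 5 deciles. Of the 983 pairs with a strongest-decile ARF36 event, 279 (28.4%) had an ARF34 event of the weaker 5 deciles. For background, 18.9% of all shared ARF36 events and 18.1% of all shared ARF34 events were of the strongest decile. The median percentile of strength was 62.3 over all shared ARF36 events and 59.0 over all shared ARF34 events. The rank correlation over the other 65 pairs of lists ran from 0.23 to 0.73, with a median of 0.36 over 35 pairs of different clades and of 0.53 over 30 pairs of one clade. The highest values were 0.73 for ARF34 with ARF16 of its own clade (15230 pairs) and 0.72 for ARF36 with ARF14 (8497 pairs). With the rest of clade A, ARF34 had 0.41 (ARF18) to 0.54 (ARF27). With the rest of clade B, ARF36 had 0.51 (ARF10) to 0.61 (ARF39). The low value was not particular to this pair: with the other clade B lists ARF34 had 0.23 (ARF25) to 0.32 (ARF39). Events are not independent replicates and pairs of lists share libraries, so these coefficients are descriptions.

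Paired events lay close together but rarely on the same base. The distance from a shared ARF34 event to the nearest ARF36 event had a median of 18 bp. In the 5213 mutual pairs the median was 17 bp (quartiles 6 and 34 bp), 35.1% lay within 10 bp, 63.9% within 25 bp and 87.2% within 50 bp. Both positions coincided in 68 pairs (1.30%). The median distance was 17 bp or more in 7 of the 35 other pairs of different clades and in 0 of the 30 pairs of one clade. It shortened with strength, to 14 bp in the strongest ARF34 decile, against 21 bp in the weakest. In the ARF36 list it was 14 bp in the strongest decile, against 22 bp in the weakest.

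The distances were not smoothly spread. Exactly 2 bp separated 501 pairs (9.61%) and exactly 5 bp separated 280 pairs (5.37%), while each of the 6 neighbouring distances of 1, 3, 4, 6, 7 and 8 bp held 103 to 135 pairs. The count at 2 bp was 4.0-fold the mean of those neighbours and the count at 5 bp was 2.24-fold. Neither side was favoured: at 2 bp the ARF36 event lay at the higher coordinate in 234 pairs and at the lower in 267, and at 5 bp at the higher in 129 and at the lower in 151. The lists give no strand, so the side could not be tied to the orientation of an element. The pairs at 2 bp were not the strongest ones, with a median percentile of strength of 62.4 for ARF34 and 64.9 for ARF36, against 69.8 for ARF34 and 70.5 for ARF36 in the other pairs up to 10 bp apart.

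Other pairs of lists had preferred distances of their own. Taken over mutual pairs, the most common distance of ARF34 events was 2 bp to ARF7 (9.80% of pairs) and to ARF14 (5.03%), 1 bp to ARF10 (9.57%) and 5 bp to ARF25 (14.5%) and to ARF39 (5.95%). For ARF36 the most common distance was 3 bp to ARF16 (16.2%), 4 bp to ARF4 (7.57%), 5 bp to ARF27 (9.87%), 1 bp to ARF29 (23.6%) and 3 bp to ARF18 (20.7%). Within clade B it was 0 bp to ARF14 (28.4%) and to ARF7 (6.51%), 2 bp to ARF10 (22.0%) and 3 bp to ARF39 (32.8%) and to ARF25 (8.86%). Within clade A the most common distance of ARF34 events was 1 bp to ARF16 (38.3%), to ARF4 (29.2%) and to ARF18 (25.98%), and 3 bp to ARF27 (26.5%) and to ARF29 (26.1%). The most common distance of either protein to each of the other 10 lists was 5 bp or less, and it changed with the partner.

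**Figure D2:**
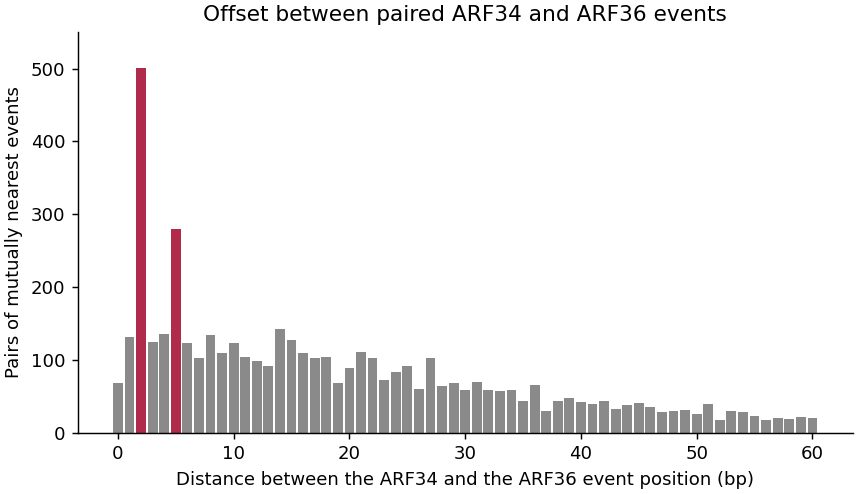
Number of pairs of mutually nearest ARF34 and ARF36 events (y axis) by the distance between their positions in bp (x axis, shown to 60 bp), with 2 and 5 bp in red. The bars at 2 bp (501 pairs) and 5 bp (280 pairs) stand above their neighbours.

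Beyond the sharing distance, ARF36 events still gathered around ARF34 events. Counting all ARF36 events on both sides of each ARF34 event, there were 2814 pairs from 1 to 20 bp apart, 259 from 81 to 100 bp, just inside the limit, and 165 from 101 to 120 bp, just outside it. Per 20 bp the number was still 1.47 times the level of 5001 to 10000 bp at 401 to 500 bp, and 1.21 times that level at 501 to 1000 bp. From 1001 to 2000 bp it was 1.01 times that level. Of the ARF34-only events 1194 (3.94%) had an ARF36 event 101 to 500 bp away, and 1021 (5.96%) of the ARF36-only events had an ARF34 event at that distance. The median distance to the other list was 13.9 kb for ARF34-only events and 8.85 kb for ARF36-only events.

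ARF34 events came in clusters of their own list more often than ARF36 events. Another event of the same list lay within 500 bp of 6182 ARF34 events (17.3%, 16.9% to 17.7%) and of 2019 ARF36 events (8.97%, 8.60% to 9.35%). Over the other lists this share was 5.93% to 20.4% in clade A and 6.37% to 9.72% in clade B. Cut to its strongest 22516 events, as many as ARF36 has, the ARF34 list still had a share of 15.03%. Among ARF34 events the share was nearly equal in shared events (17.5%, 16.5% to 18.5%) and ARF34-only events (17.3%, 16.9% to 17.7%). Among ARF36 events it was 13.6% (12.7% to 14.6%) in shared and 7.51% (7.12% to 7.91%) in ARF36-only events. In the strongest decile 25.04% of ARF34 and 14.6% of ARF36 events had such a neighbour, against 12.4% of ARF34 and 6.84% of ARF36 events in the weakest.

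Many of the clustered ARF34 events were spaced at multiples of about 65 bp, and the ARF36 distances showed little of this alignment. Among all distances of 50 to 1000 bp between ARF34 events, the period from 40 to 100 bp that aligned them best was 64.9 bp, with a resultant length (0 for no alignment, 1 for full alignment) of 0.40. At this period the ARF36 distances gave 0.022, and the best period of that list, 83.9 bp, gave 0.11. Within 5 bp of 130 bp, which is the second multiple, there were 408 ARF34 pairs and 33 ARF36 pairs. Midway to the next multiple, within 5 bp of 162 bp, there were 67 ARF34 pairs and 32 ARF36 pairs. The single distances most often seen in ARF34 near the first 4 multiples were 64, 130, 193 and 262 bp. Even at the eighth multiple, 519 bp, there were 133 ARF34 pairs, against 17 midway beyond it. This spacing was noticed while the lists were examined, and the period was fitted on the ARF34 list itself, so these values describe it and test nothing.

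**Figure D3:**
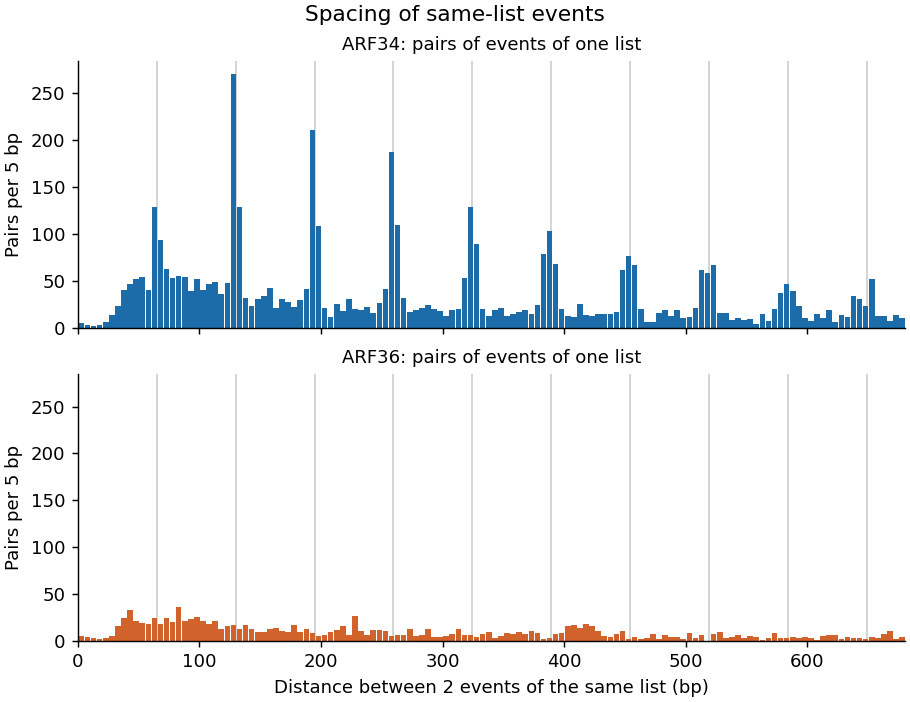
Number of pairs of events of the same list per 5 bp (y axis) by their distance in bp (x axis), for ARF34 (upper panel, blue) and ARF36 (lower panel, orange), with grey lines at multiples of 64.9 bp. The ARF34 pairs pile up at the grey lines, with 408 pairs within 5 bp of 130 bp, where ARF36 has 33.

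The same measure was taken over the gaps between adjacent events of a list. Windows of 5 bp on each side of the multiples cover 15.5% of the distances from 50 to 500 bp. They held 1468 of 3303 ARF34 gaps (44.4%, 42.8% to 46.1%) and 122 of 929 ARF36 gaps (13.1%, 11.1% to 15.5%). In the other lists of clade A they held 58.6% of the gaps in ARF4, 51.6% in ARF16, 47.5% in ARF27, 37.8% in ARF18 (14 of 37 gaps) and 31.8% in ARF29. In the other lists of clade B they held 14.8% to 21.4%. The clade A lists share many events with ARF34, so they are not independent of it: ARF16 had events within 10 bp of both ends for 17.8% of the ARF34 gaps in the windows, ARF4 for 16.01%, and ARF36 for 0%. This difference between the lists was not tested.

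ARF34 events beside a gap in the windows had ARF36 less often than those beside other gaps, and most lay in the middle of the chromosomes. The 2488 events beside a gap in the windows made up 6.97% of the ARF34 list and 40.2% of its events with a near neighbour. As the windows cover 15.5% of the distances, this set also takes in gaps that fall there without regular spacing. An ARF36 event lay at 7.44% of them (6.47% to 8.53%), against 19.0% (17.8% to 20.4%) of the 3537 events beside a gap outside the windows, beside 15.2% of all ARF34 events. Both sets include the 173 events with a gap in the windows on one side and a gap outside them on the other. Between 25% and 75% of the chromosome length lay 78.9% of the events beside a gap in the windows (77.3% to 80.5%), against 50.4% (48.8% to 52.1%) of those beside a gap outside them. ARF16 had an event at 70.7% of the events beside a gap in the windows, against 63.1% beside a gap outside them and 39.8% of ARF34 events without a near neighbour. For ARF4 these shares were 64.8% in the windows, 48.1% outside them and 30.1% without a neighbour, and for ARF27 they were 41.8% in the windows, 36.8% outside and 21.2% without a neighbour. The other clade A proteins, ARF29 and ARF18, were less frequent in the windows than outside them. ARF29 had 17.1% in the windows, 20.9% outside and 10.4% without a neighbour. ARF18 had 5.23% in the windows, 6.39% outside and 2.50% without a neighbour. Of the clade B proteins ARF10 had one at 15.2% of the events beside a gap in the windows, ARF25 at 9.85%, ARF7 at 5.67%, ARF14 at 4.22% and ARF39 at 2.37%. Beside gaps outside the windows ARF10 had one at 19.9%, ARF25 at 20.2%, ARF7 at 15.4%, ARF14 at 12.1% and ARF39 at 6.87%. At ARF34 events without a near neighbour ARF10 had one at 12.3%, ARF25 at 14.5%, ARF7 at 11.8%, ARF14 at 8.24% and ARF39 at 5.06%. The share in the windows was thus below both others for ARF25, ARF7, ARF14 and ARF39, while that of ARF10 lay between them.

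Longer chains showed this more clearly. Chains were runs of events of one list with no gap over 500 bp. ARF34 had 486 chains of 3 or more events and ARF36 had 48. For 5 or more events the numbers were 52 in ARF34 and 2 in ARF36. An ARF36 event lay at 19.5% of ARF34 events in chains of 2, at 5.63% in chains of 3 or 4, and at 2 of the 308 events (0.65%, 0.18% to 2.34%) in chains of 5 or more. Of the gaps in these longest chains 82.0% lay in the windows, and 89.3% of their events (85.3% to 92.3%) lay in the middle of the chromosomes. They were found on 18 of the 20 chromosomes. Their median percentile of strength was 72.3, against 48.9 for ARF34 events without a near neighbour. Of the other clade B proteins, ARF10 had an event at 15.6% of them, against 12.3% of ARF34 events without a near neighbour. ARF25 had one at 8.12%, against 14.5%, ARF7 at 1.62%, against 11.8%, and ARF14 and ARF39 at 0%. In the ARF36 list an ARF34 event lay at 22.6% of single events, at 36.7% of events in chains of 2, at 32.4% in chains of 3 or 4 and at 1 of 10 in the chains of 5.

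The longest chain, named after its length was seen, held 12 ARF34 events between positions 28970815 and 28972907 of chromosome 3, with strengths from 19.5 to 83.9. Its gaps were 130, 262, 130, 130, 262, 263, 158, 167, 196, 263 and 131 bp, of which 9 of 11 lay in the windows. ARF16 had events at 7 of the 12 positions, ARF4 at 6, ARF27 at 5 and ARF29 at 2, while ARF36 and the other clade B proteins had 0. A chain of 9 events on chromosome 8, from 29676968 to 29678659, had strengths from 47.3 to 184.1 and all 8 gaps in the windows. ARF16 and ARF4 had events at 7 of its positions each, ARF27 at 6, ARF10 at 3, ARF25 at 2 and ARF36 at 0. A chain of 8 events on chromosome 18, from 32933010 to 32934108, had 1 gap of 324 bp and 6 gaps of 128 to 131 bp. It had ARF10 at 1 position, ARF25 at 2 and ARF36 at 0. The other chains of 8 or 9 events, on chromosomes 4, 18 and 20, also had no ARF36 event. Of these, the chain on chromosome 18 had ARF10 at 2 positions and ARF25 at 2. The chain on chromosome 20 had ARF10 at 2 and ARF25 at 1, and the chain on chromosome 4 had 0 of either.

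Both proteins had events on all 20 chromosomes, and the density of each list varied little between chromosomes. ARF34 had 33.2 (chromosome 15) to 40.6 (chromosome 17) events per Mb between the first and last event of any list, a 1.22-fold range. ARF36 had 20.1 (chromosome 15) to 26.5 (chromosome 19), a 1.32-fold range. There were 1.43 (chromosome 19) to 1.73 (chromosome 17) ARF34 events for each ARF36 event. The shared part of the ARF34 events ran from 13.8% on chromosome 1 to 18.4% on chromosome 19. The shared part of the ARF36 events ran from 20.8% on chromosome 16 to 28.5% on chromosome 17.

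Within chromosomes shared events lay in the middle less often than events of one protein alone. The middle, from 25% to 75% of the length, held 39.98% of shared events (38.7% to 41.3%), 47.4% of ARF34-only events (46.9% to 48.0%) and 51.2% of ARF36-only events (50.5% to 52.0%), beside 45.8% of the events of all 12 lists. With each chromosome cut into 10 equal bins, the shared part of the ARF34 list was 17.8% in the first bin, 12.0% in the fifth and 18.1% in the last. The shared part of the ARF36 list was 29.8% in the first bin, 17.2% in the fifth and 29.6% in the last. In the strongest decile 36.1% of shared events (33.2% to 39.2%) lay in the middle, against 49.8% of ARF34-only events (47.9% to 51.8%). In the strongest ARF36 decile 48.5% of the ARF36-only events lay there (45.8% to 51.3%). The ranges of ARF34-only and ARF36-only events thus overlapped in the strongest deciles. Leaving aside the ARF34 events beside a gap in the windows, the middle held 44.7% of ARF34-only events (44.1% to 45.3%) and 39.3% of shared ones.

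ARF34 events had more close neighbours towards the middle, while ARF36 events changed little. The share of ARF34 events with a neighbour within 500 bp was 11.7% in the first bin and 9.63% in the last, and from the fourth to the seventh bin it was 21.8%, 22.6%, 27.3% and 23.7%. The same share of ARF36 events lay between 7.75% and 10.5% in all 10 bins. The share of ARF34 events beside a gap in the windows was 16.99% in the sixth bin, against 1.999% in the first and 1.13% in the last.

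**Figure D4:**
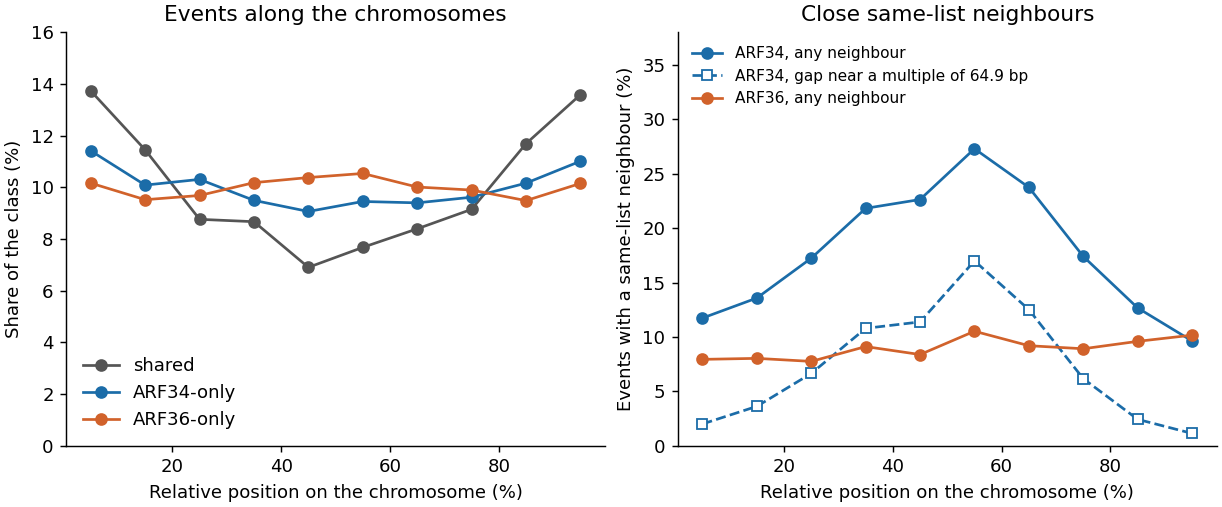
Left, share of shared, ARF34-only and ARF36-only events (%, y axis) in each of 10 equal bins of the chromosome length (x axis, all 20 chromosomes together). Right, share of ARF34 and ARF36 events with a same-list neighbour within 500 bp, and of ARF34 events beside a gap near a multiple of 64.9 bp. Shared events are fewest in the fifth bin, and ARF34 neighbours are most frequent in the sixth (27.3%).

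The lists of the other 10 ARFs were then laid over the 3 kinds of event. Each clade A protein was found more often at ARF34-only events and each clade B protein more often at ARF36-only events. Of the ARF34-only events 42.0% had an ARF16 event, 29.6% one of ARF4, 19.8% one of ARF27, 8.503% one of ARF29 and 2.07% one of ARF18, whose list is short. Of the ARF36-only events 0.99% had an ARF16 event, 7.90% one of ARF4, 3.49% one of ARF27, 2.37% one of ARF29 and 0.082% one of ARF18. For clade B the ARF34-only events had ARF25 at 4.68%, ARF10 at 4.45%, ARF7 at 2.70%, ARF14 at 0.59% and ARF39 at 0.26%. The ARF36-only events had ARF25 at 48.4%, ARF10 at 30.8%, ARF7 at 48.5%, ARF14 at 34.3% and ARF39 at 13.2%. The log2 ratio of both shares, ARF34-only over ARF36-only, averaged 3.26 ± 1.66 in clade A and -4.37 ± 1.36 in clade B (SD, n = 5 proteins each). The ranges, 1.84 to 5.41 in clade A and -5.87 to -2.79 in clade B, did not overlap. The difference of 7.63 gave p = 0.0079 when clades were exchanged among the 10 proteins in a two-sided exact permutation test, the smallest value this design allows (Benjamini-Hochberg adjusted over 3 tests 0.012). More sharing within a clade was already known for these lists, so this is no independent support for it. The classes also build in part of this outcome. ARF34-only events have no ARF36 event within 100 bp, so a list that mostly coincides with ARF36 can rarely lie there. The same holds for ARF36-only events and lists that mostly coincide with ARF34. An ARF36 event lay within 100 bp of 90.4% of ARF14 events, and an ARF34 event within 100 bp of 92.5% of ARF16 events. Lists of one clade also overlap. An ARF16 event lay within 100 bp of 98.0% of ARF18 events, and an ARF25 event within 100 bp of 87.4% of ARF39 events. The 10 proteins are thus not fully independent units, and the p-values of all 3 tests may be too small.

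**Figure D5:**
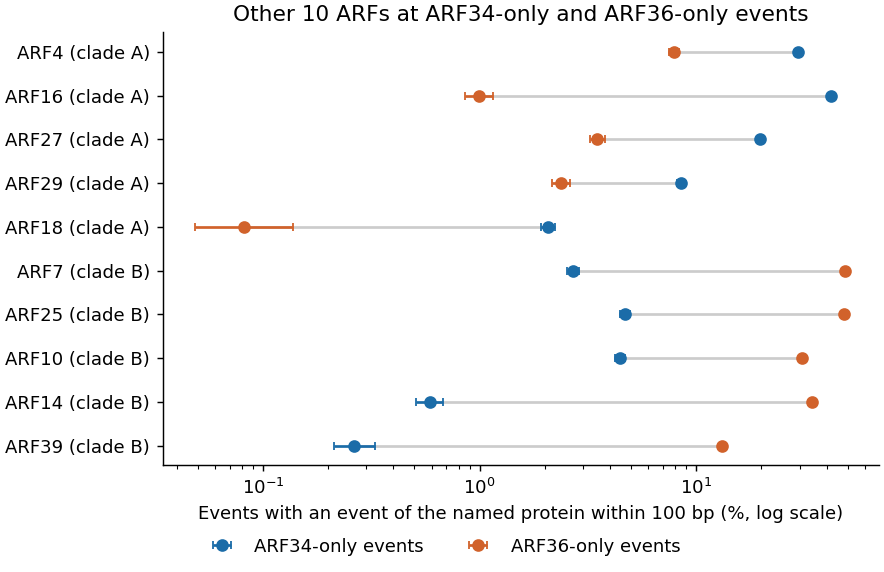
Share of ARF34-only events (blue) and of ARF36-only events (orange) with an event of each of the other 10 ARFs within 100 bp (%, log scale on the x axis), with Wilson 95% intervals. The 5 clade A proteins lie to the right at ARF34-only events and the 5 clade B proteins at ARF36-only events.

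The ratio of the shares at ARF34-only and ARF36-only events differed between proteins of one clade. It was 42.4-fold for ARF16 and 25.3-fold for ARF18 but 3.75-fold for ARF4, 5.67-fold for ARF27 and 3.58-fold for ARF29 towards ARF34-only events. Towards ARF36-only events it was 58.4-fold for ARF14 and 49.97-fold for ARF39 but 6.92-fold for ARF10, 10.3-fold for ARF25 and 18.0-fold for ARF7. ARF18 rested on 14 ARF36-only events and ARF39 on 80 ARF34-only events. Shared events carried both clades: ARF25 had events at 72.0% of the shared ARF34 events, ARF10 at 63.4%, ARF7 at 63.0%, ARF4 at 61.9% and ARF16 at 58.7%. The share was 52.4% for ARF14, 50.5% for ARF27, 32.5% for ARF39, 32.1% for ARF29 and 9.76% for ARF18.

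At shared sites the other proteins also lay more often nearer to the protein of their clade, though ARF29 was close to even (53.1%). Among mutual pairs whose ARF34 and ARF36 positions lay at least 10 bp apart, 3504 in all, the event of another ARF was nearer to the ARF34 position in 66.2% of cases for ARF16, 61% for ARF27, 60.5% for ARF18, 59.2% for ARF4 and 53.1% for ARF29. The same share was 38.7% for ARF25, 37.9% for ARF7, 32.7% for ARF10, 30% for ARF39 and 26.1% for ARF14. The means were 59.97% ± 4.7 in clade A and 33.1% ± 5.3 in clade B (SD, n = 5 proteins each), with no overlap. The difference of 26.9 percentage points gave p = 0.0079 in the two-sided exact permutation test, again the smallest possible (adjusted over 3 tests 0.012). Each value rested on 258 (ARF18) to 2471 (ARF25) pairs. Over 30 pairs of lists of one clade the median distance had a median of 8 bp, against 14 bp over 35 pairs of different clades. Closer positions within a clade are thus a property of these same lists, and the test is no independent support for them.

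The strengths of the other lists gave no clade difference past the threshold. For each protein the median percentile of its own events at ARF34-only events was compared with that at ARF36-only events. The difference averaged 5.7 ± 30 percentage points in clade A and -11.4 ± 13.2 in clade B (SD, n = 5 proteins each; two-sided exact permutation test, p = 0.22, adjusted over 3 tests 0.22). ARF16 had 28.8, ARF27 had 16.8, ARF4 had 15.6 and ARF29 had 14.2, against -47.0 for ARF18, whose median at ARF36-only events came from 13 events. In clade B, ARF7 had -20.3, ARF25 had -19.1, ARF14 had -16.8 and ARF10 had -12.3, against 11.7 for ARF39, with 78 events at ARF34-only events. Without ARF18 the difference between the clades was 30.2 points, with an adjusted exact permutation p of 0.016.

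Support from other lists followed strength. Of the ARF34-only events 54.3% (53.8% to 54.9%) had an event of at least 1 other clade A protein, and 72.6% (71.9% to 73.2%) of the ARF36-only events had one of another clade B protein. In the strongest decile these shares were 93.8% for ARF34-only and 99.4% for ARF36-only events, against 26.9% for ARF34-only and 48.3% for ARF36-only events in the weakest. Events of 4 or 5 other proteins of the own clade lay at 5.35% of all ARF34-only and 16.6% of all ARF36-only events. In the strongest decile they lay at 26.9% of ARF34-only and 78.4% of ARF36-only events, and at 60.4% of the shared ARF34 and 93.6% of the shared ARF36 events. List lengths limit these shares. The other clade A lists held 1106 (ARF18) to 19478 (ARF4) events, beside 35715 of ARF34. The other clade B lists held 4210 (ARF39) to 20802 (ARF7) events, beside 22516 of ARF36. The part of list length in the differences between ARF34 and ARF36 was not tested. A protein of the opposite clade was found at 8.90% of ARF34-only and 10.6% of ARF36-only events, and 4 or 5 of them at 0.18% of ARF34-only and 0.23% of ARF36-only events. Events that none of the other 10 lists had numbered 13238 (43.7%) among ARF34-only and 4466 (26.1%) among ARF36-only events. The median percentile of strength of ARF34-only events was 34.04 with 0 other clade A proteins and 95.7 with all 5, and that of ARF36-only events 29.5 with 0 other clade B proteins and 91.4 with all 5.

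The strongest shared sites carried most of the other proteins. The leading pair lay on chromosome 12, with the ARF34 event at position 40628942 (strength 4375.6) and the ARF36 event at 40628937 (strength 10507), and 9 of the other 10 lists had an event there. The next lay on chromosome 11 at 16084006 for ARF34 and 16083983 for ARF36, also with 9 of the others. On chromosome 20 the ARF34 event at 32738794 (strength 2699.2) lay 3 bp from the strongest ARF36 event of all, at 32738791 (strength 20864), with 4 clade A and 3 clade B proteins. The remaining named pairs were on chromosome 15 (ARF34 at 19636794, ARF36 at 19636782) with 9 of the others and on chromosome 8 (ARF34 at 3960141, ARF36 at 3960137) with all 10. Strengths of different lists have no stated common scale and are not compared between proteins.

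The strongest sites of one protein had varied company. The first and second ARF34-only events lay 18 bp apart on chromosome 15, at 28347793 (strength 3198.7) and 28347811 (strength 2978.3), ranked 4 and 5 in the list, with events of ARF16, ARF29 and ARF25. The ARF34-only events at 49411245 of chromosome 15 (strength 796.4) and 38222515 of chromosome 13 (547.5) had all 5 other clade A proteins, with 1 clade B protein at the site on chromosome 15 and 2 at the site on chromosome 13. The one at 54601464 of chromosome 1 (607) had ARF16 and ARF39. The strongest ARF36-only event, at 40632135 of chromosome 12 (strength 15300.3), ranked 2 in its list and lay 3193 bp from the nearest ARF34 event, with 4 clade B and 0 clade A proteins. Those at 39723278 of chromosome 9 (5409.8) and 7239535 of chromosome 15 (1898) had all 5 other clade B proteins, with 3 of clade A on chromosome 9 and 2 on chromosome 15. Those at 19634424 of chromosome 15 (1239.5) and 37751129 of chromosome 8 (1065.4) had 0 of clade A, with 4 of clade B on chromosome 15 and 2 on chromosome 8.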

How the data were processed

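Per the submitters' processing notes, reads were handled with Trimmomatic 0.36 and Bowtie2. For the caller's settings, its filters and the genome build nothing is stated in the sources. The deposited lists hold windows of 201 bp with the event at offset 100, a signal value that the authors gave each event (called strength here, scale not stated), and −log10 p and −log10 q values that the deposited files cap at 999. Read totals are not in the lists, so depth is unknown. Positions were written 1-based. Deciles were cut by strength within a list, with ties in order of position, and the chromosome length is the span between the first and last event of any list. Clade differences over the other 10 proteins were put to exact permutation tests (two-sided), with p-values adjusted with the Benjamini-Hochberg method over 3 tests. Named sites were the 5 shared pairs with the highest mean percentile and the 5 strongest events of each protein alone. The members, tests and settings were chosen with earlier results of these data known, and the period of ARF34 spacing after seeing the lists. Motif content was planned and not run, because no genome of a stated build was used here. Alternatives were other sharing and neighbour distances, stricter events, equal list lengths, mutual pairs, ranking by −log10 q, a wider middle, other separations and leaving out each protein. The code was tested on simulated data. Values were computed in Python 3.11.15 using scipy 1.17.1, pandas 2.3.3 and numpy 2.4.6, and drawn by matplotlib 3.10.9.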

Additional observations from a re-analysis of the deposited data

Results flagged for a closer look

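ARF18 and ARF39 stood apart from the other proteins of their clades in 1 measure, with a gap to the nearest protein of over 0.71 of the clade's range. The measure is the median percentile of strength at ARF34-only events minus that at ARF36-only events. ARF18 had -47.0 percentage points in clade A, with a median of 90.1 from 13 events at ARF36-only events. ARF39 had 11.7 in clade B, with a median of 55.3 from 78 events at ARF34-only events. Over 5 measures 10 groups of 5 proteins were examined, and chance alone marks about 1 group in 20.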

How the results depend on the processing

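The share of ARF34 events with ARF36 (15.2%) was 12.9% at 50 bp, 16.5% at 200 bp, 12.2% for the stricter events, whose −log10 q reached the list's median, 16.9% for the 22516 strongest ARF34 events and 14.6% for mutual pairs. The stricter setting cut both lists, to 18072 ARF34 and 11399 ARF36 events, so it also removed possible partners. The share of ARF36 events with ARF34 (23.9%) was 20.5%, 25.7%, 19.0%, 16.8% and 23.2% under the same settings. It was 23.0% for events with −log10 p at least 0.95 times the value that their strength gives with no opposing control reads. That reading is inferred from the values, and the setting was chosen after seeing the data. The median distance (18 bp) was 15 bp at 50 bp, 21 bp at 200 bp, 16 bp for the stricter events and 17 bp for mutual pairs. Near neighbours within 250 bp, within 1000 bp and among stricter events were found for 11.9%, 21.6% and 15.8% of ARF34 events and for 6.17%, 12.0% and 7.04% of ARF36 events, and for 15.03% of the 22516 strongest ARF34 events. With windows of 3 bp, 8 bp and stricter events, settings chosen after seeing the data, 33.6%, 54.2% and 51.8% of ARF34 gaps lay near multiples of the period. Windows of 3 and 8 bp held 8.07% and 22.0% of ARF36 gaps, and they cover 9.31% and 24.8% of the distances. A middle from 20% to 80% held 49.5% of shared, 57.3% of ARF34-only and 60.7% of ARF36-only events, and with stricter events the shares were 37.6%, 48.6% and 49.6%. The gain in sharing from the weakest to the strongest decile moved within its interval under 4 of 4 settings for each list. Leaving out 1 protein gave clade differences of 7.10 to 8.02 in log2 occupancy and of 25.2 to 28.6 points in position, each at an adjusted exact permutation p of 0.024 or less. For strength percentiles it gave 11.3 to 30.2 points, and without ARF18 this difference passed the threshold (30.2, adjusted exact permutation p = 0.016, against 0.10 to 0.38 under the other 12 settings). The cause of these changes was not tested. No paired analysis was possible because each protein has 1 library. Unknown depth limits every statement that an event lacks the other protein.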
